A study of Rattus norvegicus with 60 samples.

Results

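Surfactant coats the air-facing surface of the alveolus and is made by the alveolar type 2 (AT2) cell. The 10 genes described here are active in that cell, and some of them in other cells too. They were measured in rat lung after inhalation of multi-walled carbon nanotubes (MWCNT), which are fibrous carbon particles of several nested graphene cylinders. The genes are Sftpa1, Sftpb, Sftpc and Sftpd, which encode the surfactant proteins, together with Abca3, Lamp3, Napsa, Lpcat1, Slc34a2 and Muc1. They were picked by name from the 30045 rows of the count table, and all 10 were found and passed the filter on low counts that 15995 rows passed.

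The animals were male Fischer 344 rats aged about 3 months. Exposed rats breathed MWCNT in a whole-body chamber for 6 hours a day on 3 days, and their controls breathed filtered air over the same period. The cumulative doses were 11.25, 22.5, 45, 90 and 180 mg/m3, and each had a separate run with its own air rats. The runs are named 011, 022, 045, 090 and 180 here. Lungs were taken 1 day after exposure ended, and RNA from a piece of lung was sequenced. After 7 libraries that the labels mark as outliers were set aside, the groups held 5 MWCNT and 6 air rats in run 011, 6 and 6 in 022, 6 and 3 in 045, 4 and 6 in 090, and 5 and 6 in 180. The labels name no other treatment, so by label the groups of a run differ only in the air they breathed. Because every dose had its own run, dose and run cannot be told apart.

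A library totalled between 8.1 and 16.2 times 1000000 counts (median 11.2). The 10 genes together took 2.121% to 3.317% of the counts of a library, so they were read deeply. A member had 2995 to 170380 counts in a library. At the mean count of a group the counting error was 0.26% to 1.7%. The coefficient of variation among rats of one group was 1.76% to 22.6%. The limit on precision is therefore the spread among libraries of a group and not the depth. Each rat gave a single library, so this spread holds differences between tissue pieces and library preparations as well as between rats. Markers of the other cell types of the alveolus and airway were abundant in the same libraries, as in any piece of whole lung. Ager, a marker of alveolar type 1 cells, had 2080 to 3420 counts per 1000000 (CPM, with library totals scaled by TMM), and Scgb1a1, a marker of club cells, had 3120 to 10200 CPM. Among the libraries set aside, 3 gave 18.1% to 21.2% of their counts to 6 liver genes and had every member below the air rats of their run.

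Surfactant is a film of phospholipid with a small share of protein that lowers surface tension and keeps alveoli open at the end of a breath. SP-B and SP-C, the hydrophobic proteins, work inside the film, whereas SP-A and SP-D are collectins, soluble lectins that bind inhaled particles and microbes. The lipid and the hydrophobic proteins are stored in lamellar bodies, lysosome-related organelles that the AT2 cell empties into the airspace. In whole tissue a change in such a gene can come from more or fewer AT2 cells or from more or less RNA per cell. It can also come from other cells that express the gene. Counts from bulk lung cannot tell these apart.

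RefSeq's promoter table for the rat assembly GRCr8 held 7 of the 10 genes, each as a window of 250 bases before to 50 bases after the gene's start. The windows of Sftpa1, Muc1 and Sftpb are shown as examples, with Sftpa1 and Muc1 among the genes that rose and Sftpb among those that did not. A link between motifs and responses was not tested. Capitals mark matches on either strand to 6 motifs: CTCAAG (the type bound by NKX2-1), TTGCNNAA (C/EBP), TGTTTNC (forkhead), TGANTCA (AP-1), TTCNNNGAA (STAT) and TATAA.
Sftpa1, chr16:17042014-17042313, plus strand: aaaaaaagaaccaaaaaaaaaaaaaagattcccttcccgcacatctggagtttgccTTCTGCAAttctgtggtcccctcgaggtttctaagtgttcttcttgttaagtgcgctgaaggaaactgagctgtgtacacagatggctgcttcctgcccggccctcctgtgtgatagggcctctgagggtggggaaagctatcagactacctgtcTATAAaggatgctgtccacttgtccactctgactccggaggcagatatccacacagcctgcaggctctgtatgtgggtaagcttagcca
Muc1, chr2:176933500-176933799, plus strand: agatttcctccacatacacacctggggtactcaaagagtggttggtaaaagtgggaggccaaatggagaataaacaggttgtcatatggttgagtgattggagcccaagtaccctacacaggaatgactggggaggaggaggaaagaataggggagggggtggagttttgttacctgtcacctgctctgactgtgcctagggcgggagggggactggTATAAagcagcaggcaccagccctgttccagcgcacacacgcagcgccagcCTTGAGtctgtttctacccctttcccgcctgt
Sftpb, chr4:105917338-105917637, plus strand: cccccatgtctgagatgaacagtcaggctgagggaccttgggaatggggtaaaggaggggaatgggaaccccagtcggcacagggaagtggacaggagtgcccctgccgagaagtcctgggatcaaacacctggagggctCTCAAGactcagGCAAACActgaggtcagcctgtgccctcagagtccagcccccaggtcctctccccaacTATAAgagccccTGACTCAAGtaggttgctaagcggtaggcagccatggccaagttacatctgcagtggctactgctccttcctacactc

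Positions count from the gene's first base as 0, with negative numbers before it. The Sftpb window held CTCAAG at -110 and -25, a forkhead match at -98 on the reverse strand, an AP-1 match at -28 that overlaps the second CTCAAG, and TATAA at -40. The Sftpa1 window held a C/EBP match at -194 on the reverse strand and TATAA at -39. In the Muc1 window there was CTCAAG at 18 on the reverse strand, inside the transcribed part, and TATAA at -33. Of the windows not shown, that of Lamp3 held a forkhead match, that of Slc34a2 a C/EBP match, and those of Abca3 and Lpcat1 none of the 6 motifs. Such short motifs are common. Among 27457 promoter windows, 15.6% held CTCAAG, 10.5% the C/EBP motif, 20.8% the forkhead motif, 7.33% the AP-1 motif, 8.68% the STAT motif and 26.1% TATAA.

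**Figure D1:**
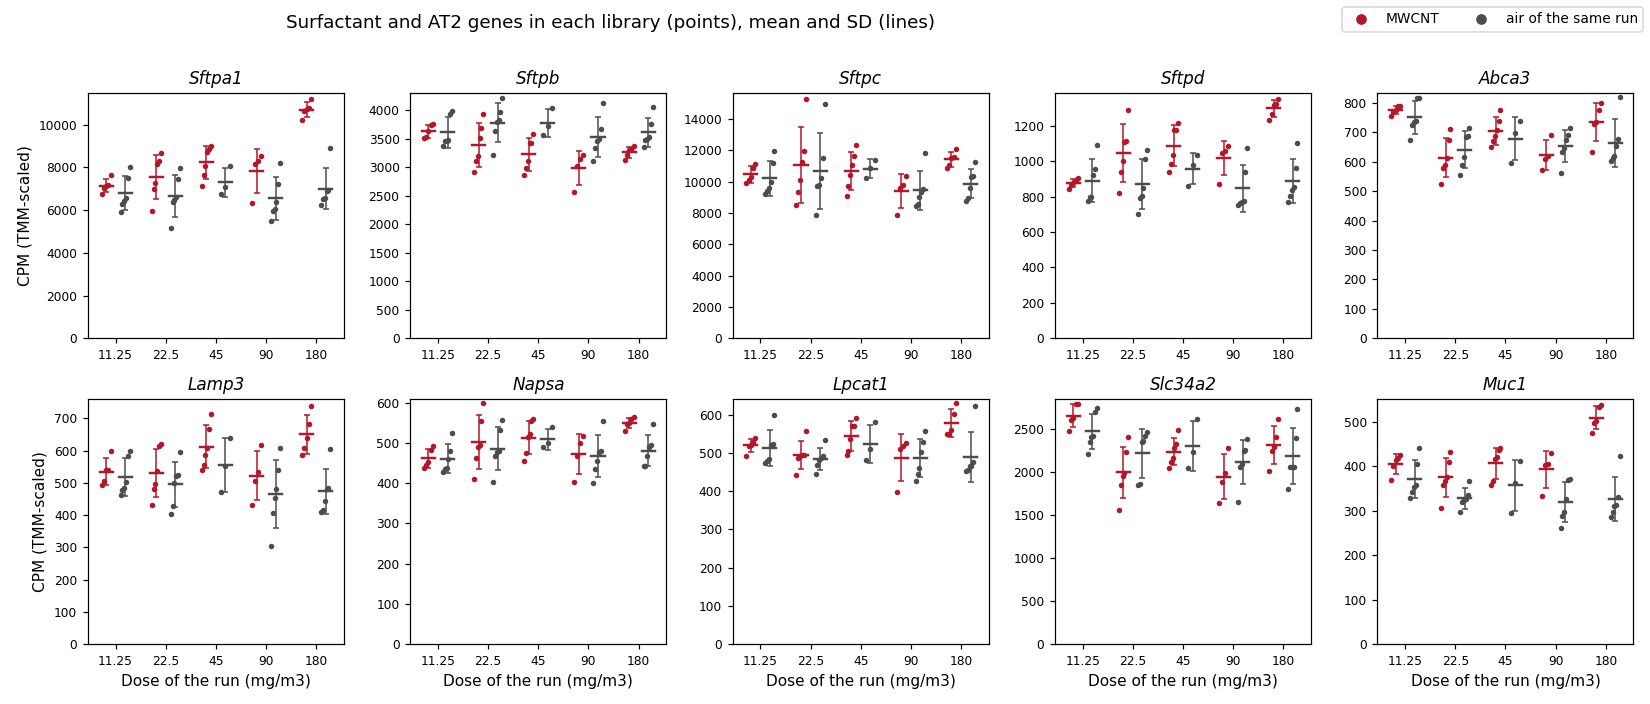
Level of each of the 10 genes in every analysed library (CPM, linear axis), by run in order of dose, with MWCNT rats left of air rats and a bar at each group's mean. In run 180 the MWCNT points of Sftpa1, Sftpd and Muc1 lie above all air points, while those of Slc34a2 lie among them.

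The collectin genes were higher after the top dose. Sftpa1, which encodes SP-A, stood at 10632, 10209, 10722, 11182 and 10761 CPM in the 5 MWCNT_180 rats, against a lowest, median and highest value of 6232, 6726 and 8898 CPM in the 6 air_180 rats. The groups did not overlap. The ratio of the fitted levels was 1.53, a log2 fold change of 0.61 ± 0.10 (SE) with an adjusted p of 4.53e-06 by edgeR's quasi-likelihood test with Benjamini-Hochberg adjustment over all genes. Sftpd, which encodes SP-D, stood at 1352, 1230, 1322, 1265 and 1317 CPM in MWCNT_180 rats, against 771.4, 843.2 and 1102 CPM as lowest, median and highest in air_180 rats. These groups did not overlap either, and the log2 fold change was 0.55 ± 0.10 (edgeR adjusted p = 5.41e-05).

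Below the top dose neither collectin gene passed. In run 090 Sftpa1 was at 6334, 8304, 8160 and 8549 CPM in MWCNT rats, against 5491, 6218 and 8217 CPM as lowest, median and highest in air rats. Its log2 fold change there was 0.26 ± 0.11 (edgeR adjusted p = 0.114), and the rats of both groups overlapped, since 1 MWCNT rat lay near the air median. In run 045 it ran from 7109 to 9009 CPM with a median of 8411 in MWCNT rats, against 8078, 7080 and 6742 CPM in the 3 air rats. The values of run 022 were 5945, 7709 and 8657 CPM as lowest, median and highest in MWCNT rats, against 5144, 6530 and 7984 CPM in air rats. At the lowest dose MWCNT rats had 7132, 7034, 7162, 6766 and 7650 CPM, all inside the air range of 5933 to 8005 CPM. The log2 fold changes of Sftpa1 in runs 011, 022 and 045 were 0.08, 0.18 and 0.17.

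Sftpd showed a like order of estimates, with log2 fold changes of -0.02, 0.26, 0.18 and 0.27 in runs 011, 022, 045 and 090, none of which passed (edgeR adjusted p = 0.999, 0.105, 0.466 and 0.117). In run 022, 5 of 6 MWCNT rats lay above the air mean and 3 of 6 above the highest air rat. That value passed without MWCNT_022 replicate 3 or without air_022 replicate 2 (adjusted p = 0.032 and 0.0239). In run 011 all 5 MWCNT rats, at 843 to 906 CPM, lay inside the air range.

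Neither hydrophobic surfactant protein gene passed at the top dose in the fit of all runs. Sftpc, whose product SP-C is made by AT2 cells alone, stood at 12084, 11073, 11506, 11572 and 10857 CPM in MWCNT_180 rats, against 8793, 9938 and 11260 CPM as lowest, median and highest in air_180 rats. All 5 MWCNT rats lay above the air mean, but 2 of them lay inside the air range. The log2 fold change was 0.21, with a 95% interval of -0.02 to 0.44 (edgeR adjusted p = 0.19). With run 180 fitted alone it passed (adjusted p = 0.0357). In the other runs Sftpc moved by between -0.02 and 0.05 on the log2 scale. Its spread was wide in run 022, where MWCNT rats ran from 8498 to 15290 CPM and air rats from 7864 to 14950 CPM.

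Sftpb, whose product SP-B is the surfactant protein that newborn mice cannot live without, had negative estimates in 4 of the 5 runs. In MWCNT_090 rats it was at 2565, 3214, 3028 and 3138 CPM, against 3105, 3480 and 4120 CPM as lowest, median and highest in air_090 rats. All 4 MWCNT rats lay below the air mean and 2 of them below the lowest air rat. It fell by 0.24 ± 0.08 on the log2 scale (edgeR adjusted p = 0.0305). This call rests on single rats: without MWCNT_090 replicate 1 the change was -0.18 (adjusted p = 0.188), and it was also lost without MWCNT_090 replicate 3, air_090 replicate 3 or air_090 replicate 4. In run 180 Sftpb had 3376, 3296, 3224, 3315 and 3126 CPM in MWCNT rats, against 3359, 3515 and 4057 CPM as lowest, median and highest in air rats, and 4 of the 5 MWCNT rats lay below every air rat. The log2 fold change there, -0.15, did not pass (edgeR adjusted p = 0.149), nor did -0.23 in run 045 or -0.16 in run 022 (adjusted p = 0.109 and 0.183). In run 011 it was 0.01.

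**Figure D2:**
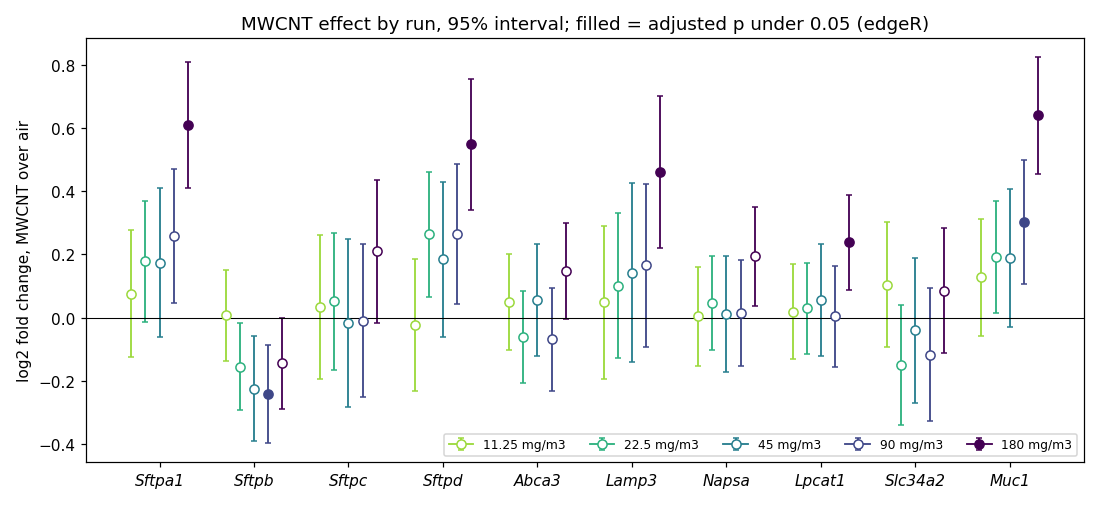
Log2 fold change of MWCNT over air for each gene in each run, by dose from low to high, with 95% intervals from the edgeR fit and filled points for adjusted p under 0.05. At 180 mg/m3 the estimates run from -0.15 for Sftpb to 0.64 for Muc1, and at 11.25 mg/m3 every interval includes 0.

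Whether the surfactant protein genes changed unequally was tested inside each library as the ratio of the counts of a pair of genes, which does not depend on how libraries were scaled. These are ratios of counts, not of transcript numbers, since gene lengths were not used. There were 20 such tests, of 4 ratios in 5 runs, by an exact two-sided permutation test over rats with Benjamini-Hochberg adjustment over the 20. Sftpa1 counts were 0.88, 0.922, 0.932, 0.966 and 0.991 of the Sftpc counts in MWCNT_180 rats, against 0.636 to 0.791 in air_180 rats. The groups did not overlap, and the difference of the mean log2 ratios was 0.40 ± 0.06 (SE; exact permutation p = 0.00433, the smallest that 462 arrangements allow here, adjusted p = 0.0289). In run 090 the ratio was 0.806, 0.824, 0.835 and 0.866 in MWCNT rats, against 0.638 to 0.754 in air rats (log2 difference 0.27, exact permutation adjusted p = 0.0309). In run 045 it was 0.73 to 0.841 in MWCNT rats, against 0.621, 0.692 and 0.709 in air rats (log2 difference 0.20, exact permutation adjusted p = 0.0476). The differences in runs 022 and 011 were 0.13 and 0.04 and did not pass (adjusted p = 0.312 and 0.297).

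Sftpd against Sftpc gave log2 differences of -0.05, 0.21, 0.21, 0.28 and 0.34 from the lowest dose to the highest, with exact permutation adjusted p of 0.433, 0.0309, 0.0476, 0.0309 and 0.0289. Sftpb against Sftpc went the other way. Sftpb counts were 0.279 to 0.298 of the Sftpc counts in MWCNT_180 rats, against 0.337 to 0.401 in air_180 rats. In log2 terms the Sftpb ratio differed by -0.03, -0.21, -0.20, -0.23 and -0.36 from the lowest dose to the highest (exact permutation adjusted p = 0.433, 0.0902, 0.0476, 0.0309 and 0.0289). All 3 ratios to Sftpc had groups that did not overlap in runs 045, 090 and 180. The collectin genes held their ratio to each other, with Sftpa1 against Sftpd differing by -0.08 to 0.09 and passing in no run. Run 045 has 3 air rats, and with any 1 rat of that run left out its 3 differences no longer passed. The smallest adjusted p they reached in those exact permutation tests was 0.0714. With 1 rat fewer there are fewer arrangements, so the smallest possible unadjusted p is higher.

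**Figure D3:**
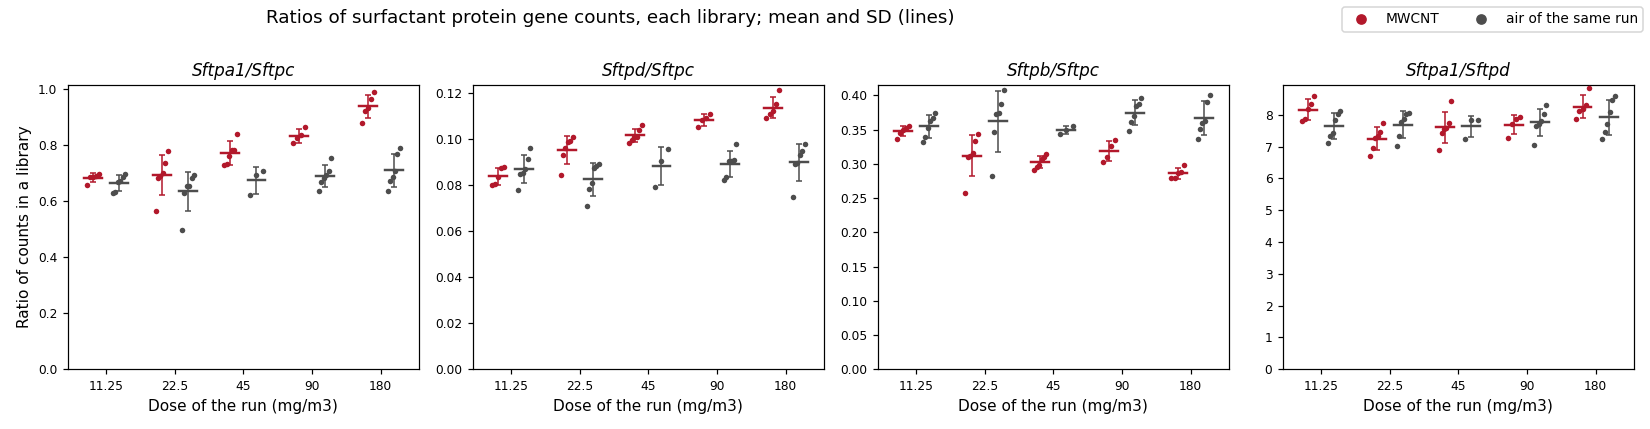
Ratio of counts within each library for 4 pairs of surfactant protein genes (linear axis), by run in order of dose, with MWCNT rats left of air rats. In run 180 Sftpa1 and Sftpd stand higher and Sftpb lower against Sftpc in all MWCNT rats than in any air rat, while Sftpa1 against Sftpd overlaps.

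Among the genes of the lamellar body and its lipid, Lamp3 and Lpcat1 rose in run 180 and Abca3 and Napsa did not pass. Lamp3, a membrane protein of lamellar bodies also known as DC-LAMP, was at 609, 640, 587, 739 and 682 CPM in MWCNT_180 rats, against 411.4, 462.5 and 604.2 CPM as lowest, median and highest in air_180 rats. In this run 4 of 5 MWCNT rats lay above all air rats. The log2 fold change was 0.46 ± 0.12 (edgeR adjusted p = 0.00318). Mature dendritic cells also carry LAMP3, and 4 of 6 of their markers rose in the same rats, where 12% of all genes were called higher. The chemokine Ccl22 led them (log2 fold change 3.65 ± 0.20, edgeR adjusted p = 4.23e-20), with Cd80, Cd83 and Relb. Ccr7 and Fscn1 did not pass, and the Relb call was kept in 5 of 11 fits that left out 1 library. The summed level of those 6 markers was 94.54 to 125.3 CPM in MWCNT_180 rats, against 76.51 to 104.5 CPM in air_180 rats, and none of the 6 was at 0 in any library. Their part in the Lamp3 value was not tested.

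Lpcat1, the acyltransferase that makes the saturated phosphatidylcholine of surfactant, was at 550, 560, 550, 629 and 600 CPM in MWCNT_180 rats, against 452.4, 466.8 and 622.5 CPM as lowest, median and highest in air_180 rats. Only 1 MWCNT rat lay above the highest air rat, air_180 replicate 6, which stood apart from the other 5 air rats of its group. The log2 fold change was 0.24 ± 0.08 (edgeR adjusted p = 0.0155). Without MWCNT_180 replicate 5 it was 0.20 and no longer passed (adjusted p = 0.0664).

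Abca3, the transporter that loads phospholipid into lamellar bodies, was at 633, 734, 727, 800 and 776 CPM in MWCNT_180 rats, against 601.3, 635.3 and 818.3 CPM as lowest, median and highest in air_180 rats. No MWCNT rat exceeded the highest air rat. Its log2 fold change of 0.15 (95% interval -0.01 to 0.30) did not pass (edgeR adjusted p = 0.171). Napsa, the aspartic protease napsin A that helps cut the SP-B precursor, had 564, 546, 549, 559 and 530 CPM in MWCNT_180 rats, against 442, 479.3 and 546.1 CPM as lowest, median and highest in air_180 rats. All 5 MWCNT rats lay above the air mean, and the log2 fold change was 0.19 (95% interval 0.04 to 0.35, edgeR adjusted p = 0.0669). Both genes passed once air_180 replicate 6 was left out, Abca3 at 0.21 and Napsa at 0.23 (adjusted p = 0.0311 and 0.0319), and Napsa passed as well with run 180 fitted alone (adjusted p = 0.0176).

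At the AT2 cell surface Muc1 rose and Slc34a2 did not. Muc1, a membrane mucin of the apical surface of AT2 and airway cells, was at 475, 502, 496, 537 and 534 CPM in MWCNT_180 rats, against 286.2, 311.6 and 422.7 CPM as lowest, median and highest in air_180 rats. The groups did not overlap. Its log2 fold change of 0.64 ± 0.09, a ratio of 1.56, was the highest estimate among the 10 genes in this run (edgeR adjusted p = 3.4e-07). In run 090 Muc1 was at 333, 430, 406 and 404 CPM in MWCNT rats, against 260.8, 312.2 and 372.3 CPM as lowest, median and highest in air rats. Here 3 of 4 MWCNT rats lay above all air rats and the log2 fold change was 0.30 ± 0.10 (edgeR adjusted p = 0.0349). That call was lost without MWCNT_090 replicate 2, 3 or 4 or air_090 replicate 2, 5 or 6, with a highest adjusted p of 0.142 without MWCNT_090 replicate 2. In runs 011, 022 and 045 the log2 fold changes were 0.13, 0.19 and 0.19, and none passed (edgeR adjusted p = 0.999, 0.204 and 0.375).

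Slc34a2, the sodium-phosphate cotransporter NaPi-IIb that takes phosphate back from the alveolar fluid, was at 2008, 2295, 2248, 2618 and 2413 CPM in MWCNT_180 rats, against 1801, 2061 and 2733 CPM as lowest, median and highest in air_180 rats. The 5 MWCNT rats lay inside the air range. The log2 fold change of 0.08 had a 95% interval of -0.11 to 0.28 (edgeR adjusted p = 0.604). In the other runs its estimates ran from -0.15 to 0.10, with none past the threshold.

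Counted together, 5 of the 10 genes rose and 0 fell in run 180, where edgeR called 22.9% of all genes tested and called 12% of them higher. The count was 4 to 7 in fits that left out 1 library. Estimates above 0 were seen for 9 of the 10 genes, against 48.7% of all genes, and the median log2 fold change was 0.22 over the 10 genes and -0.01 over all genes. The groups did not overlap for 3 of the 10 genes, all higher, against 7.32% of all genes that lay apart in that direction. The count of estimates above 0 is not particular to the top dose, since it was also 9 of 10 in run 011. It was 7, 7 and 6 in runs 022, 045 and 090. The 10 genes varied together among rats, so their signs are not independent. In run 090, 1 gene rose and 1 fell, where edgeR called 11.1% of all genes, 6.82% higher and 4.28% lower. In run 045 0 genes passed by edgeR, DESeq2 found 0 and limma voom 1, and 1 gene had an unadjusted p under 0.05, while edgeR called 5.41% of all genes. In run 022 0 passed by edgeR or DESeq2 and 1 by limma voom, with 3 at an unadjusted p under 0.05, against 6.8% of all genes called. In run 011 0 passed with all 3 tools and 0 had an unadjusted p under 0.05, while edgeR called 0.025% of all genes.

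Across the runs, 3 genes had an MWCNT effect that increased with dose. Per doubling of dose the log2 fold change went up by 0.11 ± 0.03 for Sftpa1, by 0.11 ± 0.03 for Sftpd and by 0.11 ± 0.03 for Muc1 (edgeR adjusted p = 0.0122, 0.0165 and 0.00683), where 10.7% of all genes had a slope that passed and 5.58% one that passed upward. The slopes of the other 7 genes ran from -0.04 for Sftpb to 0.09 for Lamp3. A test of any difference of the effect among the 5 runs called Muc1 alone of the 10 genes (edgeR adjusted p = 0.0436), where it called 4.92% of all genes, and the Muc1 call was kept in 26 of the 53 fits that left out 1 library. The 5 air groups differed in 0 of the 10 genes by the same model, with 1 at an unadjusted p under 0.05, while 7.11% of all genes differed between them. Their highest mean over their lowest was 1.07 for Sftpb and at most 1.19, for Lamp3.

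With all 60 libraries in the fit, 3 of them with a liver profile, 0 of the 10 genes passed in any run. The log2 fold changes of Sftpa1 and Muc1 in run 180 were 0.60 and 0.64 in that fit (edgeR adjusted p = 0.853 and 0.764).

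The 10 genes also varied together among rats of one group. Each library's log2 CPM was taken as a deviation from its group's mean, and the 45 pairs of genes were correlated over the 53 libraries with 100000 permutations within groups. All 45 correlations were positive, with a median Pearson r of 0.749, and 41 passed after Benjamini-Hochberg adjustment over the pairs. All deviations of one library share its scaling. How many pairs of other genes would pass was not counted, so this share is not shown to be particular to the 10 genes. The genes fell into blocks. One held the surfactant proteins and Napsa: Napsa against Sftpc had r = 0.93 and rho = 0.942 (permutation p = 1e-05 each, the smallest these permutations can give, adjusted p = 1.5e-05), and r = 0.94 without the 2 libraries farthest on Sftpc. Another held the membrane proteins Abca3, Slc34a2 and Lamp3. Abca3 against Slc34a2 had r = 0.941 and rho = 0.928 (permutation p = 1e-05 each, adjusted p = 1.5e-05), and r = 0.931 without the 2 farthest libraries.

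The blocks were named after the correlations were seen. Of the 15 pairs with 1 gene in each block, 11 passed, with r between 0.113 and 0.734 and a median of 0.348. The highest was Sftpa1 against Lamp3 (r = 0.734, rho = 0.691, permutation p = 1e-05 each, adjusted p = 1.5e-05, r = 0.674 without the 2 farthest libraries). The 4 that did not pass were Sftpc and Sftpd against Abca3 and Slc34a2. Sftpc against Abca3 had r = 0.113 and rho = 0.252 (permutation p = 0.51 and 0.111, adjusted p = 0.521 for r), and r = 0.427 without the 2 farthest libraries. Sftpc against Slc34a2 had r = 0.113 and rho = 0.267 (permutation p = 0.521 and 0.0872, adjusted p = 0.521 for r), and r = 0.452 without the 2 farthest. In both pairs r depended on 2 libraries. Muc1 and Lpcat1 tracked each other (r = 0.913, rho = 0.913, permutation p = 1e-05 each, adjusted p = 1.5e-05, r = 0.9 without the 2 farthest) and went with both blocks, with r of 0.597 to 0.886 for Muc1 against the surfactant proteins. Among MWCNT rats alone 31 of 45 pairs passed over 26 libraries, and among air rats alone 41 of 45 passed over 27 libraries.

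**Figure D4:**
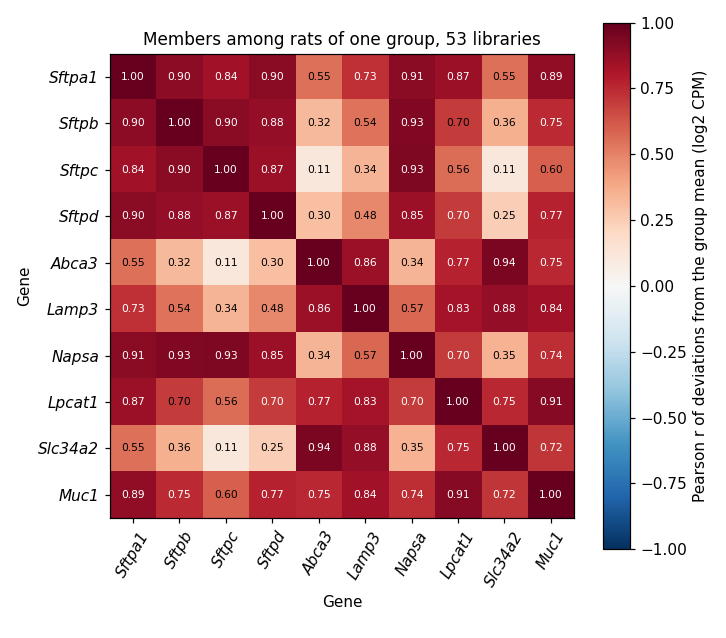
Pearson r between each pair of the 10 genes over 53 libraries, from deviations of log2 CPM from the group mean. The surfactant protein genes with Napsa, and Abca3 with Lamp3 and Slc34a2, form blocks with r of 0.836 or more, and r between these blocks runs from 0.113 for Sftpc against Abca3 and against Slc34a2 to 0.734 for Sftpa1 against Lamp3.

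Related genes of the surfactant system were counted from lists. In run 180, the run of these counts, edgeR called 22.9% of all genes and 12% of them higher. Of 10 tested genes for processing and secretion, 5 rose and 0 fell in run 180. Cathepsin H (Ctsh), which also cuts the SP-B precursor, averaged 1010 ± 63.2 CPM in MWCNT_180 rats and 738 ± 105 CPM in air_180 rats (SD, n = 5 and 6), a log2 fold change of 0.45 ± 0.10 (edgeR adjusted p = 0.000296). The phospholipid flippase gene Atp8a1 rose by 0.46 ± 0.10 (edgeR adjusted p = 0.000286), and P2ry2, the ATP receptor through which AT2 cells are triggered to secrete, rose by 0.59 ± 0.12 (adjusted p = 0.000237). Dmbt1, a scavenger protein that binds SP-D, averaged 4.36 ± 0.83 CPM in MWCNT_180 rats and 2.25 ± 0.68 CPM in air_180 rats (SD, n = 5 and 6). It rose by 0.94 ± 0.16 on the log2 scale (edgeR adjusted p = 1.21e-05) and also passed in run 090 at 0.64 ± 0.17 (adjusted p = 0.00851). The median log2 fold change over this list in run 180 was 0.25.

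Of 11 tested genes for lipid synthesis, 3 rose and 0 fell in run 180, against 12% of all genes called higher. Fabp5, a fatty acid binding protein, rose by 0.75 ± 0.15, the fatty acid synthase gene Fasn by 0.39 ± 0.13, and Gpam, which starts glycerolipid synthesis, by 0.14 ± 0.05 (edgeR adjusted p = 0.000144, 0.0268 and 0.0496). The calls of Fasn and Gpam were each kept in 4 of the 11 fits that left out 1 library of the run, and without MWCNT_180 replicate 5 Gpam was at 0.08 (adjusted p = 0.337). Srebf1, which encodes the lipid-synthesis regulator SREBP-1 and was listed with the transcription factors, fell. It averaged 93.2 ± 1.15 CPM in MWCNT_180 rats and 129 ± 16.1 CPM in air_180 rats (SD, n = 5 and 6) and fell by 0.47 ± 0.08 on the log2 scale (edgeR adjusted p = 1.68e-05). Srebf1 also passed in runs 022, 045 and 090, at -0.38, -0.41 and -0.49. Among the 9 transcription factors of AT2 cells it was the gene that fell in run 180, and Nkx2-1, the regulator of lung epithelial identity that binds the surfactant promoters, was the gene that rose (0.24 ± 0.06, edgeR adjusted p = 0.00103), while 7 did not pass. In that run 22.9% of all genes were called.

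Of 7 other AT2-enriched genes, 3 rose in run 180 and 1 fell, against 22.9% of all genes called. Lyz2, a lysozyme that alveolar macrophages also make, rose by 0.35 ± 0.10, Lrp2 by 0.28 ± 0.10 and Fgfr2 by 0.19 ± 0.07 (edgeR adjusted p = 0.00731, 0.0423 and 0.0353). The calls of Lrp2 and Fgfr2 were each kept in 4 of 11 fits that left out 1 library. Acoxl fell by 0.47 ± 0.10 (adjusted p = 0.000209) and also passed in runs 022 and 090, at -0.31 in each.

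Genes by which macrophages take up and break down surfactant changed in both directions. These are levels in whole lung, and which cells the changes came from was not tested. Of 11 tested in run 180, 4 rose and 5 fell, against 22.9% of all genes called. Csf2rb, the shared receptor subunit for GM-CSF, which macrophages need to clear surfactant, rose by 0.93 ± 0.12 (edgeR adjusted p = 2.65e-08). Among those that fell were the cholesterol exporters Abca1 (-0.88 ± 0.09) and Abcg1 (-0.60 ± 0.10) and the lysosomal phospholipase Pla2g15 (-0.72 ± 0.10), with edgeR adjusted p of 8.84e-11, 1.13e-05 and 6.04e-08. Abca1 and Pla2g15 also passed, with lower levels in MWCNT rats, in runs 022, 045 and 090.

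Transitional alveolar epithelium is a state between AT2 and type 1 cells described in mouse lung repair. Of 12 tested genes of this state, 4 rose and 0 fell in run 180, against 12% of all genes called higher. The lectin Lgals3 rose by 0.73 ± 0.13, the 14-3-3 protein Sfn by 0.67 ± 0.16, the urokinase receptor Plaur by 0.62 ± 0.13 and the claudin Cldn4 by 0.51 ± 0.18 (edgeR adjusted p = 2.05e-05, 0.00132, 0.000405 and 0.0335). The Cldn4 call was kept in 5 of 11 fits that left out 1 library. The keratin genes Krt7, Krt8, Krt18 and Krt19 were among the 8 that did not pass. Macrophages also express Lgals3 and Plaur.

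Markers of other cells moved in the same rats, in a run where edgeR called 22.9% of all genes. Of the 15995 genes tested, 1921 were called higher and 1739 lower. Of 10 type 1 cell markers 0 rose and 5 fell in run 180, and their summed level was 8366 to 8480 CPM in MWCNT_180 rats, against 9543 to 10350 CPM in air_180 rats. Of 7 club cell markers 1 rose and 4 fell, with a sum of 3929 to 4920 CPM in MWCNT_180 rats, against 5947 to 8878 CPM in air_180 rats. Of 6 endothelial markers 0 rose and 5 fell, with a sum of 2577 to 2824 CPM in MWCNT_180 rats, against 3074 to 3519 CPM in air_180 rats. Markers shared by epithelia went up in 5 of 7 cases, and their sum was 846.8 to 869.5 CPM in MWCNT_180 rats, against 703.6 to 741.9 CPM in air_180 rats. All 5 neutrophil markers rose, with a sum of 238.2 to 315.8 CPM in MWCNT_180 rats, against 122.6 to 203.7 CPM in air_180 rats. All 5 cell division markers rose too, with a sum of 126.4 to 142.6 CPM in MWCNT_180 rats, against 35.4 to 48.44 CPM in air_180 rats. Of 6 tested macrophage markers 2 rose and 1 fell, and their sums overlapped at 455.2 to 511.8 CPM in MWCNT_180 rats, against 359.3 to 591.4 CPM in air_180 rats. Of 5 tested ciliated cell markers 3 rose and 1 fell. The one that fell, Tppp3, had the highest level of that list. Its list summed to 552.4 to 681.3 CPM in MWCNT_180 rats, against 688.7 to 972.9 CPM in air_180 rats. Of 4 tested fibroblast markers 0 were called, and of 5 lymphocyte markers 0 rose and 1 fell. The part of these shifts in the values of the surfactant genes was not tested.

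Genes outside the lists whose 5 log2 fold changes were most like a member's were found among 12882 genes that averaged 1 CPM or more, by the root mean square difference over the 5 runs. Nearest to Sftpa1 were Clec5a, Ifit1lb and Sema4a, at 0.045 to 0.0465. Nearest to Sftpd were Igsf8, Pls1 and Serpine2, at 0.0273 to 0.0354, and nearest to Muc1 were Ifit1lb, Odc1 and Sema4a, at 0.0326 to 0.0438. Lamp3 was nearest to Lcp1, Tgoln2 and Slc39a14, at 0.0327 to 0.0362. Sftpc, with its small effects, was nearest to Mfsd11, Klf16 and Tmem206, at 0.0198 to 0.0273. These differences are smaller than the standard error of a single member's fold change in run 180.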

How the data were processed

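RNA from the lungs of 60 rats was sequenced from stranded mRNA libraries. The deposited table holds raw counts of reads per gene symbol for each library, with no normalization by the authors. Per the submitters' processing notes the tools were bcl2fastq 2.19, Trimmomatic 0.35, HISAT2 2.1.0, Cufflinks, SAMtools 1.8 and HTSeq 0.11.2. The genome build is not given in the sources used here. Doses are those of the design text. A spreadsheet date stood in place of a symbol in 27 rows, which held 0.205% of the counts and stayed in the table.

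The 53 libraries without an outlier label were analysed in R 4.3.3. filterByExpr with a minimum count of 10 kept 15995 genes with 99.932% of the counts. Libraries were scaled by TMM, and CPM are counts per 1000000 on that scale. One robust quasi-likelihood model of the 10 run-by-treatment groups was fitted with edgeR 4.0.16, and each MWCNT group was compared with the air group of its run. The threshold was a p of 0.05 after Benjamini-Hochberg adjustment over all genes, and SE is the log2 fold change divided by the square root of F. The script was tested on simulated counts. Ratios and correlations used Python 3.11.15 with scipy 1.17.1. Alternatives used limma 3.58.1 and DESeq2 1.42.0. No replicate pair was a duplicate (smallest chi-square per degree of freedom 2.53). Reads carry no molecular identifiers, so counting errors are lower limits.

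The members and the gene lists were chosen with earlier results of these data known. From each related list the text names up to 4 genes with the smallest adjusted p among those called in run 180, and genes most like a member were taken as the nearest 3 for Sftpa1, Sftpc, Sftpd, Lamp3 and Muc1. Symbols were matched to a RefSeq table of GRCr8 for names only, and 19073 symbols matched. Promoter sequences are from RefSeq's GRCr8 table. The only gene that overlaps a member there is a long noncoding RNA at Slc34a2, which is not a row of the count table.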

Additional observations from a re-analysis of the deposited data

Results flagged for a closer look

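Within a group of 4 to 6 rats, 6 values of the 10 genes stood far from the others, among 90 groups examined. Chance flags about 1 in 20 groups. Of these, 4 came from air_180 replicate 6, which was the highest of its 6 rats for Sftpa1 (8898 CPM), Abca3 (818.3 CPM), Lpcat1 (622.5 CPM) and Muc1 (422.7 CPM). Without that rat the log2 fold changes in run 180 were 0.69 for Sftpa1, 0.21 for Abca3, 0.31 for Lpcat1 and 0.72 for Muc1, and 7 of the 10 genes passed in place of 5. The other flagged values were the lowest Lpcat1 level in MWCNT_090, in replicate 1 (396.6 CPM), and the highest Sftpc level in air_090, in replicate 4 (11860 CPM).

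The MWCNT effect on Muc1 differed among the 5 runs by the edgeR test of the difference itself (adjusted p = 0.0436), with log2 fold changes of 0.13, 0.19, 0.19, 0.30 and 0.64 from the lowest dose to the highest.

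Libraries left out for their outlier label were scaled together with all 60 libraries and set beside the air rats of their run on that scale. MWCNT_180 replicate 1 lay above every air_180 rat for Sftpa1 (9903 CPM, air up to 8499), Sftpd (1244 CPM, air up to 1053), Lamp3 (638.4 CPM, air up to 577.1) and Muc1 (495.5 CPM, air up to 403.7). Its Sftpb level lay below every air_180 rat (2948 CPM, air from 3173), and its other 5 genes lay inside the air range. MWCNT_011 replicate 2 lay above every air_011 rat for Muc1 (420.8 CPM, air up to 418.4).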

How the results depend on the processing

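Limits. Rats of one run share an exposure and an air group, and run 045 has 3 air rats. Depth limits no value of the 10 genes, whose counting error is below their spread among rats.

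No paired analysis was possible because the replicate numbers follow accession order and name rats only, and the numbers in the labels differ between the groups compared.

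With all 60 libraries, 3 of them with a liver profile, edgeR called 0, 163, 5122 and 614 genes in runs 011, 022, 090 and 180, 99 for the dose slope and 2415 for the difference among runs. The members called were then 0 in runs 090 and 180, 0 for the slope and 0 for the difference. The Muc1 change in run 090 reversed there to -0.2754 (adjusted p = 0.686). The share of calls that were higher was 77.9% in place of 52.5% in run 180, 77.2% in place of 61.5% in 090, 26.2% in place of 61.4% in 045, 96.9% in place of 76.2% in 022 and 83.8% in place of 52.4% for the slope. With 57 libraries the members called were 1 in run 045, 1 in 090 and 2 for the difference among runs.

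With the air rats of all runs pooled the genes called were 269, 3491 and 2710 in runs 011, 022 and 045, and the members called 1, 5 and 1 in runs 022, 045 and 090. With limma voom the genes called were 1857 in run 045 and 3189 in run 090, and the members called 1, 1 and 4 in runs 022, 045 and 090. With each run fitted alone 341 genes were called in run 022, with 93.5% of them higher, and 0 members in run 090. With no filter the members called were 1 in run 090 and 0 for the difference among runs. In DESeq2 66.1% of the calls in run 022 were higher, and with pooled air rats 60.4%. In run 011, where 4 genes were called, 59.1% of the calls with pooled air rats and 80% of those with limma voom were higher, in place of 100%.

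Leaving out 1 library at a time, the genes called were 2 to 5 in run 011, 735 to 2919 in 022 (2919 without air_022 replicate 2), 377 to 811 in 045 and 540 to 1440 among air groups. The members called were 0 to 1 in run 022, 0 to 3 in 090, 0 to 1 among air groups (Abca3 without air_180 replicate 6, adjusted p = 0.0491) and 0 to 3 for the difference among runs. The cause of these differences was not tested.

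The calls of Sftpa1, Sftpd, Muc1 and Lamp3 in run 180, and the slopes of Sftpa1, Sftpd and Muc1, were kept in every fit run for them except that of all 60 libraries. Of 70 genes of other lists called in run 180, 58 were refitted and 12 were not. Of the 58, none changed sign, 44 were lost with all 60 libraries, 10 in some other setting and 7 without some library; these fits were added after seeing the data. Of 69 uncalled values of members, 24 changed sign in some fit.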

Other observations

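The 2 rats with the highest Sftpc levels among the 53 libraries had the lowest levels of Slc34a2 in their groups. Both were in run 022, and this is not a statement about the highest Sftpc rat of other groups. They were singled out after their values were seen. MWCNT_022 replicate 5 had 15288 CPM of Sftpc and 1558 CPM of Slc34a2, while the other 5 rats of its group had 8498 to 11942 CPM of Sftpc and 1855 to 2407 CPM of Slc34a2. In air_022 replicate 2 Sftpc was at 14950 CPM and Slc34a2 at 1851 CPM, while the other 5 rats of that group had 7864 to 11499 CPM and 1860 to 2468 CPM. Abca3 was also the lowest of the group in both, at 523 CPM in MWCNT_022 replicate 5 and 556 CPM in air_022 replicate 2.

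A library that the labels mark as an outlier held a like profile. On the scale of all 60 libraries, air_045 replicate 3 had 16980 CPM of Sftpc, 4822 CPM of Sftpb, 1275 CPM of Sftpd and 719.2 CPM of Napsa, each above the 3 analysed air_045 rats. Its Slc34a2 level of 1519 CPM and Abca3 level of 514.5 CPM lay below all 3 of them. Liver genes took 0.0139% of its counts. The cause of these profiles was not tested.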
